A study of Homo sapiens with 26 samples.

Results

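The glycolysis and hypoxia response genes studied here are 40 genes picked by symbol. They comprise 24 genes that take glucose from uptake to lactate and 16 genes of the response to low oxygen. All 40 symbols were rows of the 5 tables of 26485 gene symbols, and 37 had a mean normalised count of at least 10 in every table, as did 11337 of all genes. EGLN3 missed this minimum in both KYSE150 tables and CA9 in the TE6 table, while CA12 met it only in the table of the KYSE180 BRDT experiment. A member below the minimum was not tested in that table, so 38 to 40 members were tested per comparison.

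mRNA-seq was performed in KYSE180, TE6 and KYSE150, which are established human esophageal squamous cell carcinoma (ESCC) lines, in order to learn how expression depends on BRDT, a germ-cell bromodomain protein gene that some ESCC cells express, and on TP63, the gene of the squamous transcription factor p63. The 26 libraries formed 11 groups in 5 experiments. KYSE180 cells received a control siRNA (siCont, n = 3) or an siRNA against BRDT (siBRDT, n = 3), and in a separate experiment siCont (n = 2) or an siRNA against TP63 (siTP63, n = 2). TE6 cells received siCont, siBRDT or siTP63 (n = 2 each), and both TE6 knockdowns share the same control libraries. KYSE150 cells received siCont or siTP63 (n = 2 each). In a further experiment they were electroporated with a control vector (control, n = 3) or with a BRDT expression plasmid (BRDT-OE, n = 3). All siRNA-treated cells were taken after 48 h, and neither the labels nor the methods name a low-oxygen treatment of any group. Each condition is a transient transfection of 1 line, and the labels do not say that replicates were separate cultures, so p-values measure the spread between these libraries, which may be technical.

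Glycolysis splits glucose into pyruvate in the cytoplasm. Hexokinases trap the sugar, phosphofructokinases commit it, and lactate dehydrogenase turns pyruvate into lactate, which monocarboxylate transporters carry out of the cell. Many of these genes are transcriptional targets of hypoxia-inducible factor (HIF), whose alpha subunits (HIF1A, EPAS1) are marked for destruction by prolyl hydroxylases (EGLN1, EGLN3) while oxygen is present. The control of HIF1A lies largely in protein stability, which mRNA levels do not show. Tumour cells, squamous carcinomas among them, are known for high glucose uptake and lactate release even in oxygen.

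Libraries held 7582089 to 19372441 reads assigned to genes, and replicates of a group correlated at 0.971 to 0.996 (Pearson's r across genes). BRDT changed by -2.75 under siBRDT in KYSE180, by -2.23 under siBRDT in TE6 and by 10.60 under BRDT-OE (log2 fold changes), and TP63 by -1.70, -4.45 and -2.34 under siTP63 in KYSE180, TE6 and KYSE150. The last value missed the threshold (adjusted p = 0.082). siBRDT also lowered TP63, by 0.58 in KYSE180 and 1.15 in TE6 on the log2 scale. The 4 libraries of the KYSE150 TP63 experiment stood apart: siCont replicate 1 resembled siTP63 replicate 2 and siCont replicate 2 resembled siTP63 replicate 1 in their deviations from the group means (r = 0.70 across genes), and no gene of 12335 was called there. With 2 libraries per group the deviations are mirror images, so these resemblances are a single observation. In TE6, siBRDT replicate 1 stood apart, with 20995 genes above 0 against 16458 to 17569 in the other 5 libraries and a summed level of the 5 leukocyte markers of 2.26 RPM (reads of a gene, with all libraries scaled to the same total of gene reads) against 0 to 0.173 RPM. Without it siBRDT lowered 8 and raised 2 members in TE6, beside 8 and 1 with it. The 6 squamous markers were detected in every library. No single marker of leukocytes exceeded 1.22 RPM in any library, none of endothelium 11.8 RPM and none of fibroblasts 14.7 RPM.

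Under siTP63, 16 of the 24 glycolytic genes fell in KYSE180 and 11 of 24 in TE6. A gene was called when its Benjamini-Hochberg adjusted p over all genes of the table (limma) was under 0.05 and its log2 fold change was at least 0.5 in size. In KYSE180, siTP63 lowered 21 of 39 members (53.8%, against 25.7% of all genes) and raised 6 (15.4%, against 23.6%), so 49.3% of all genes were called in either direction, and the members had a median log2 fold change of -0.56 beside 0.00 over all genes tested. In TE6, siTP63 lowered 17 of 38 members (44.7%, against 20.6%) and raised 1 (against 18.3%, and 38.9% in either direction), with a median of -0.48 beside -0.01. In the hypoxia arm 5 of 15 genes fell and 5 rose in KYSE180, and 6 of 14 fell and 1 rose in TE6.

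BRDT knockdown moved fewer members. In KYSE180, siBRDT lowered 10 of 40 (25.0%, against 15.8% of all genes) and raised 1 (against 14.5%, and 30.3% in either direction), and 7 of the 10 belonged to the hypoxia arm. The median was -0.33 beside -0.01 over all genes, and 33 of the 40 values lay below 0. In TE6, siBRDT lowered 8 of 38 (21.1%, against 18.1%), a share near that of all genes, and raised 1 (against 15.6%, and 33.7% in either direction). BRDT-OE in KYSE150 lowered 7 of 38 (18.4%, against 16.0%) and raised 2 (against 10.5%, and 26.5% in either direction), with a median of 0.16 beside 0.02. In KYSE150, siTP63 gave 0 called members of 38 and 0 called genes in all (0.0% in each direction), with 7 members and 2194 genes at an unadjusted p under 0.05. On recovered reads edgeR called 0 members and DESeq2 called 3 there. The share of all genes called by DESeq2 is not given here, so the 3 cannot be set against it.

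**Figure D1:**
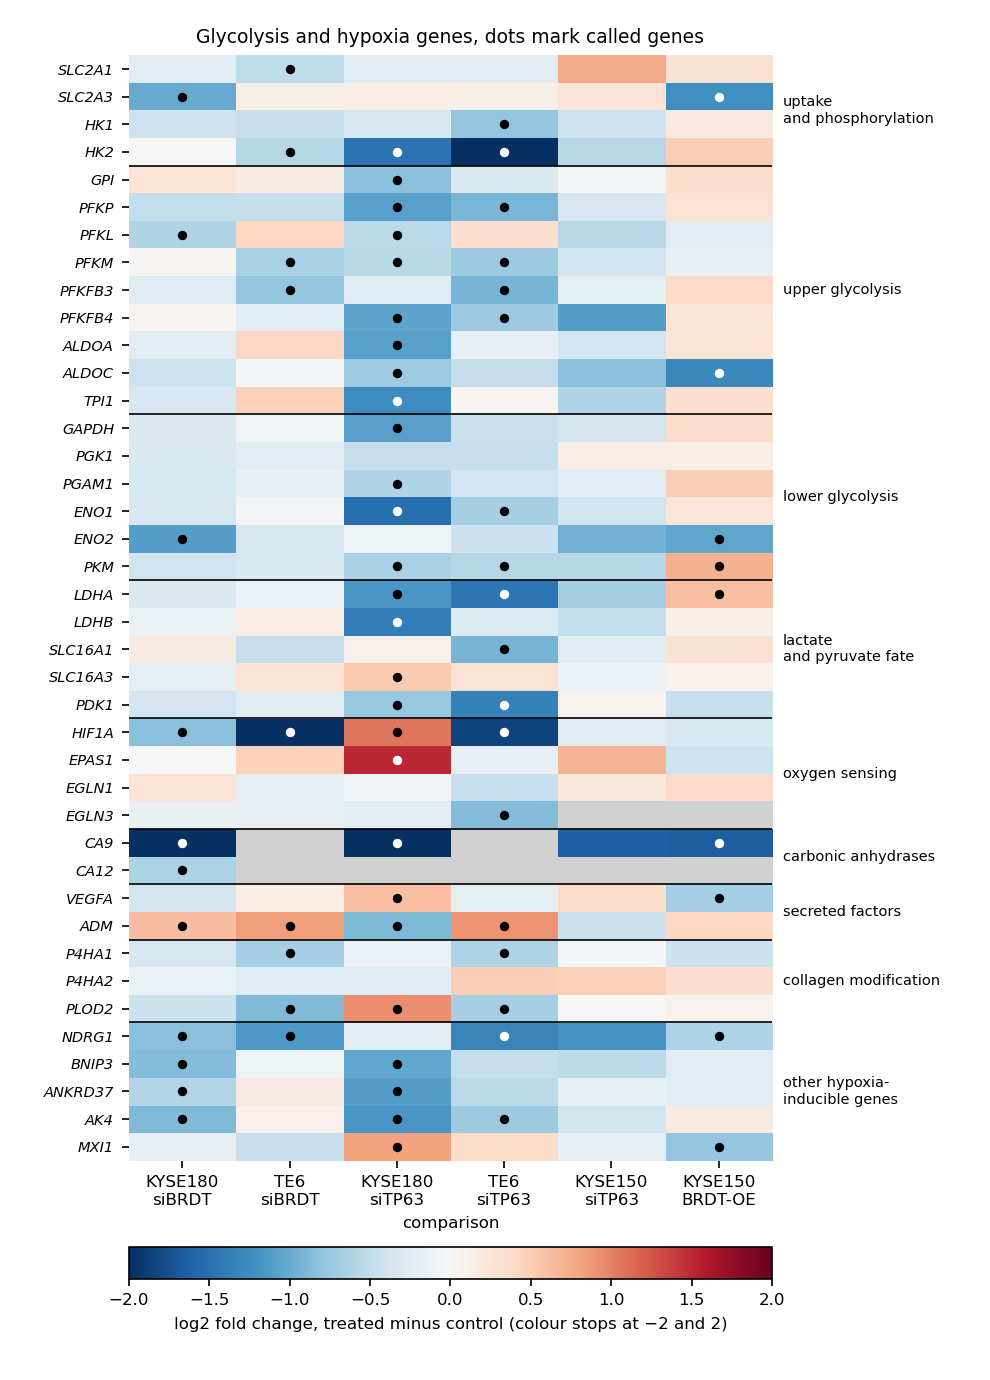
Log2 fold changes of the 40 members (rows, grouped by role) in 6 comparisons (columns), blue for lower and red for higher in treated cells. Dots mark called genes and grey cells were not tested. The column of siTP63 in KYSE180 holds 21 lower and 6 higher called genes and that of siTP63 in KYSE150 none.

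The scale set by the library normalisation bears on these counts. With equal library totals the median of all genes in KYSE180 siTP63 shifted by 0.52 and the calls went from 3577 lower and 3292 higher genes to 1460 lower and 6728 higher, and members called lower went from 21 to 12. Upper quartiles gave 2556 lower and 4644 higher there (shift 0.22), and upper quartiles over tested genes 2631 and 4524. In TE6 siBRDT upper quartiles turned 2419 lower and 2074 higher genes into 586 and 2712 (shift 0.28), and members called lower from 8 to 2. Equal totals gave 3122 and 1576 there. In BRDT-OE equal totals turned 2043 lower and 1343 higher genes into 2675 and 792 (shift -0.12), upper quartiles gave 2430 and 966, upper quartiles over tested genes 2529 and 889, and removing the trend on transcript length and GC content 1562 and 1615. In KYSE180 siBRDT equal totals turned 2143 lower and 1972 higher genes into 1700 and 2514. Of the 74 calls of members in the 6 comparisons, 44 held under every alternative. No called member changed its direction under any scaling.

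A share of reads does not use the library factors. The 17 glycolytic enzymes from hexokinase to lactate dehydrogenase took 2.66% and 2.84% of all gene reads in the KYSE180 siCont libraries of the TP63 experiment and 1.90% and 1.79% with siTP63. In TE6 the share was 2.25% and 2.20% with siCont, 1.61% and 1.61% with siTP63, and 1.93% and 2.22% with siBRDT. In KYSE150 it was 2.48% and 2.45% with siCont and 1.96% and 2.04% with siTP63, although no single gene was called. All siTP63 libraries thus lay below the siCont libraries of their line. With siBRDT in KYSE180 the share went from 2.02–2.13% to 1.75–1.93% (n = 3 each), and in BRDT-OE it was 1.97–2.01% against 1.57–1.84% in the control (n = 3 each), so the 3 BRDT-OE libraries lay above all controls. In bulk RNA, fewer cells of a kind and less RNA per cell cannot be told apart.

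**Figure D2:**
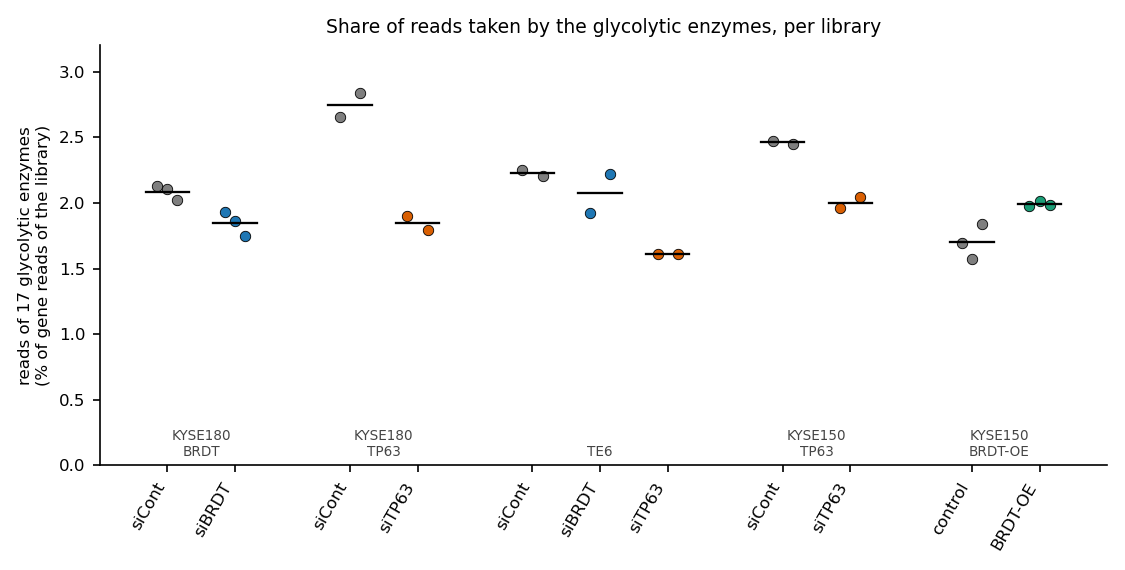
Percentage of each library's gene reads that belonged to the 17 glycolytic enzymes (points, 1 per library; bars, group means; y axis from 0). The siTP63 points lie below their siCont points in KYSE180, TE6 and KYSE150, and the BRDT-OE points lie above their controls.

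Other gene groups moved in the same comparisons. Interferon-response genes rose under siTP63 in KYSE180 (10 of 10), under siBRDT in TE6 (10 of 10) and under siTP63 in TE6 (8 of 10), and fell in BRDT-OE (8 of 8). Their summed level ran from 311 to 325 RPM in siCont and from 1936 to 2063 RPM in siTP63 of KYSE180, from 237 to 258 RPM in siCont, 1830 to 2294 RPM in siBRDT and 1311 to 1350 RPM in siTP63 of TE6, and from 235 to 332 RPM in the control against 54.6 to 61.2 RPM in BRDT-OE. Proliferation genes fell under siTP63 in KYSE180 (10 of 10; 2171 to 2202 RPM in siCont, 1380 to 1474 RPM in siTP63) and in TE6 (9 of 10; 2589 to 2749 RPM and 1173 to 1188 RPM), and 3 of 10 fell under siBRDT in TE6 (1873 to 2008 RPM). In KYSE150 siTP63 none of the 10 was called, with 2192 to 2643 RPM in siCont and 1328 to 1662 RPM in siTP63. In KYSE180 siBRDT the interferon list held 1 lower and 2 higher genes and the proliferation list 1 lower gene of 10.

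The 6 squamous markers, TP63 among them, also moved. Under siTP63 all 6 fell in KYSE180 (6535 to 6676 RPM in siCont, 4542 to 4597 RPM in siTP63) and in TE6 (6898 to 7149 RPM and 1424 to 1545 RPM), and none was called in KYSE150, where the sum was 1827 to 2245 RPM in siCont and 763 to 806 RPM in siTP63. Under siBRDT 4 of 6 fell in KYSE180 (7451 to 7975 RPM and 4698 to 4851 RPM), and 3 fell and 1 rose in TE6 (4292 to 4569 RPM). BRDT-OE lowered 1 and raised 1 (1212 to 1451 RPM in the control, 1377 to 1488 RPM in BRDT-OE). The summed endothelial list was 1.43 to 2.18 RPM in siCont and 11.3 to 12.1 RPM in siTP63 of KYSE180, 4.67 to 5.90 RPM and 7.96 to 9.76 RPM in TE6, and 0.796 to 1.73 RPM and 5.52 to 11.4 RPM in KYSE150. Of its 5 genes 1 was tested in each line, though not the same gene in all, and the tested gene rose in KYSE180 and TE6. The highest level of VWF, 11.8 RPM, lay in KYSE180 siTP63 and that of CDH5, 10.8 RPM, in KYSE150 siTP63. The sums of these 2 groups thus rest mostly on 1 gene each. The part of these 4 lists in the results below was not tested.

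Glucose enters through SLC2A1 (GLUT1) and SLC2A3 (GLUT3) and is phosphorylated by HK1 and HK2. HK2, the inducible hexokinase of tumour cells, had the largest fall of the glycolytic arm in TE6. Its normalised counts there were 759 and 767 with siCont, 562 and 466 with siBRDT and 182 and 185 with siTP63. The siBRDT values lay between those of siCont and siTP63 with no overlap, and the log2 fold changes were -2.05 ± 0.13 (SE, adjusted p = 1.7e-07) for siTP63 and -0.58 ± 0.13 (adjusted p = 0.0032) for siBRDT. The siBRDT call was lost with upper quartiles (-0.30), with the length and GC trend removed (-0.40) and without siBRDT replicate 2 (-0.44), and held under the other 13 of 16 alternatives. In KYSE180, HK2 counts of 827 and 829 with siCont became 277 and 317 with siTP63, a log2 fold change of -1.48 ± 0.15 (adjusted p = 7.4e-09).

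HK2 was not called under siBRDT in KYSE180. Counts were 1474, 1532 and 1595 with siCont and 1408, 1513 and 1698 with siBRDT, which overlap, and the log2 fold change was 0.00 (adjusted p = 0.98). In BRDT-OE all 3 libraries (2094 to 2316) lay above the controls (1423 to 1691), with 0.49 ± 0.08 (adjusted p = 7.0e-04), just short of the limit of 0.5, which it passed without control replicate 1 (0.51) or 2 (0.54) or BRDT-OE replicate 3 (0.53). In KYSE150 siTP63, HK2 was 598 and 692 against 879 and 1015 in siCont (-0.55, adjusted p = 0.24), and it was called only with the replicate pairing crossed. HK1, the constitutive hexokinase, fell under siTP63 in TE6 from 2724 and 2913 to 1604 and 1638 (-0.80 ± 0.13, adjusted p = 2.2e-04). The ratio of HK1 to HK2 reads in TE6 went from 3.55 and 3.84 with siCont to 8.98 and 8.67 with siTP63, and in KYSE180 from 2.53 and 2.59 to 6.20 and 5.27.

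SLC2A1, the main glucose carrier of epithelial tumours, was called once. That call was in TE6 siBRDT, where counts of 933 and 937 became 530 and 809 (-0.51 ± 0.16, adjusted p = 0.021), and the values of -0.46 with DESeq2, -0.48 with edgeR and -0.21 without the first siBRDT library missed the fold limit. The call was also lost with upper quartiles (-0.24), upper quartiles over tested genes (-0.48) and without siCont replicate 1 (-0.51) or 2 (-0.52). It held under 9 of 16 alternatives. Under siTP63 SLC2A1 had -0.22 in KYSE180 (adjusted p = 0.20) and -0.22 in TE6 (adjusted p = 0.28), and the KYSE180 value was 0.31 with equal library totals. In KYSE150 it went the other way, from 1521 and 1902 with siCont to 3339 and 2459 with siTP63, which do not overlap. It was called there only with the replicate pairing crossed (0.75), a setting chosen after the data were seen. SLC2A3 was detected mostly in KYSE150, with 893 to 1206 counts in the control of the overexpression experiment and at most 19.6 in any KYSE180 or TE6 library. In BRDT-OE it was 402, 442 and 458, below all 3 controls (-1.23 ± 0.11, adjusted p = 1.9e-05). It was also called lower in KYSE180 siBRDT, on 6.09 to 11.7 against 13.6 to 19.6 counts. That call held under 10 of 15 alternatives and was lost with DESeq2 (-1.05) and without siCont replicate 1 or 3 or siBRDT replicate 2 or 3 (-0.96 to -0.84).

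For HK2, LDHA, PDK1, CA9 and HIF1A, on which the results turn, the 250 bases before a RefSeq start (GRCh38.p14) are shown as the gene reads. Capitals mark the HIF core, that is ACGTG or GCGTG on either strand. The palindrome CACGTG, an E-box that MYC and USF proteins also bind, holds this core on both strands and is counted once. Where a gene has several starts, the window with most cores is given.
HK2 (chr2:74834920-74835169, + strand): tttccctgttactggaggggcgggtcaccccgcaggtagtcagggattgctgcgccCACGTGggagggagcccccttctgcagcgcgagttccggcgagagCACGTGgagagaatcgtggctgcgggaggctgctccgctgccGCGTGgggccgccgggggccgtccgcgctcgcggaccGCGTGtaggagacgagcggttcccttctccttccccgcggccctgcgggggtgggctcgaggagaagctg
LDHA (chr11:18394313-18394562, + strand): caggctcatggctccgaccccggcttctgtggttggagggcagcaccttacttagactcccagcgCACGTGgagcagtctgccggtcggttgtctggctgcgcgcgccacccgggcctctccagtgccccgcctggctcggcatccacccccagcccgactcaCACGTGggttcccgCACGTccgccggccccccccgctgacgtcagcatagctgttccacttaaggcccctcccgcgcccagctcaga
PDK1 (chr2:172555840-172556089, + strand): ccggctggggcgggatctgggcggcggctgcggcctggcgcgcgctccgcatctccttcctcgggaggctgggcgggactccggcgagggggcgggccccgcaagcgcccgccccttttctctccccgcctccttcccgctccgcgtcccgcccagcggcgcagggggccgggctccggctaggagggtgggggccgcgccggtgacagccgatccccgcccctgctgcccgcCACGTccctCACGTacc
CA9 (chr9:35673678-35673927, + strand): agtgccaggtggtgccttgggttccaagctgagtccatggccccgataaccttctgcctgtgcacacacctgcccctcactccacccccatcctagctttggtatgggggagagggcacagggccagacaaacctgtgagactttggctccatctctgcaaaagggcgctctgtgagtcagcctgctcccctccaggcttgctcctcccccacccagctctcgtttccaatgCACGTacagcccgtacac
HIF1A (chr14:61695263-61695512, + strand): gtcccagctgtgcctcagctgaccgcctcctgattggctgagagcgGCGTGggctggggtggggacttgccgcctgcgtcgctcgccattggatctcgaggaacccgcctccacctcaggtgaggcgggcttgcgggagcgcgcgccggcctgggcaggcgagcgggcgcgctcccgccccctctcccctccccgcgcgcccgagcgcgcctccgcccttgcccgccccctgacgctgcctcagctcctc

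The HK2 window held 4 cores, 2 of them in E-boxes, and the LDHA window 3 cores, 2 of them in E-boxes. PDK1 had 2 cores, the nearer beginning 8 bases before the start, and CA9 had 1, beginning 18 bases before it. HIF1A had 1 core of the GCGTG form and none of the ACGTG form. Every window shown thus holds a core, whereas SLC2A1, PGAM1, PKM, LDHB, EGLN3 and P4HA2 had none. Entries were found for 36 members, and 41 of their 68 windows (60.3%) held at least 1 core, against 43.2% of the 35116 windows of all genes. For ACGTG alone the shares were 36.8% and 18.5%. Member windows were also richer in G and C, with a median of 68.4% against 58.0%. A half-site of the p53 family, which p63 can bind, was present in 4 member windows (5.88%) and in 5.57% of all. Such matches describe letters in a window and not binding.

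In upper glycolysis, GPI isomerises glucose 6-phosphate, PFKP, PFKL and PFKM are the phosphofructokinase isoforms, PFKFB3 and PFKFB4 make or remove their activator, ALDOA and ALDOC are aldolases and TPI1 interconverts the triose phosphates. siTP63 lowered 8 of these 9 genes in KYSE180 and 4 of 9 in TE6. TPI1 counts in KYSE180 were 24342 and 24562 with siCont and 10900 and 9616 with siTP63 (-1.26 ± 0.17, adjusted p = 8.0e-07), and ALDOA counts were 48551 and 46304 against 24293 and 20532 (-1.09 ± 0.19, adjusted p = 3.5e-05). In TE6 they had 0.04 and -0.17, and no siTP63 call was made for them there. PFKP fell in both lines, from 2893 and 2691 to 1339 and 1298 in KYSE180 (-1.08 ± 0.14) and from 2332 and 2137 to 1191 and 1176 in TE6 (-0.91 ± 0.15). PFKM and PFKFB4 were also called lower in both lines. PFKL, GPI and ALDOC were called lower in KYSE180 and PFKFB3 in TE6. In KYSE180 the calls of PFKL, PFKM and ALDOC held under 7, 10 and 9 of 13 alternatives. All were lost with equal library totals (-0.02, -0.04 and -0.19), as was that of GPI (-0.31), PFKL also without siCont replicate 1 (-0.49) or siTP63 replicate 2 (-0.41), and ALDOC without siCont replicate 2 (-0.33). In TE6 the call of PFKFB4 was lost without siCont replicate 1 (-0.62) or siTP63 replicate 2 (-0.64) and with upper quartiles (-0.64). The differences between lines are tested further on. PFKM shares exonic bases with SENP1, and TPI1 with SPSB2, on the opposite strand, and PFKFB4 with UCN2 on its own strand. UCN2 fell by 2.52 and SENP1 and SPSB2 had -0.22 and 0.28 in KYSE180 siTP63 (log2 fold changes), and reads of such pairs cannot be told apart without the counting options.

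siBRDT lowered PFKL in KYSE180, from 2597–2643 to 1605–1811 (-0.60 ± 0.06, adjusted p = 1.7e-06), and PFKFB3 and PFKM in TE6. PFKFB3 counts in TE6 were 211 and 190 with siCont and 108 and 123 with siBRDT (-0.79 ± 0.17, adjusted p = 0.0026). PFKM went from 1099 and 1034 to 552 and 830 (-0.65 ± 0.16), and without the first siBRDT library it had -0.36 and was no longer called. Its call was also lost without siCont replicate 1 (-0.61) and, like that of PFKFB3 (-0.52), with upper quartiles (-0.38). In BRDT-OE the upper arm held 1 call, ALDOC, a brain-type aldolase with few reads in KYSE150, at 53.8 to 109 counts in the control and 29.6 to 35.2 in BRDT-OE (-1.29 ± 0.25, adjusted p = 0.0015).

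Lower glycolysis comprises GAPDH, PGK1, PGAM1, the enolases ENO1 and ENO2 and the pyruvate kinase PKM. ENO1 had the largest fall of the glycolytic arm in KYSE180 siTP63, from 77919 and 76624 to 28736 and 25418 counts (-1.52 ± 0.20, adjusted p = 7.4e-07), and went from 42410 and 41048 to 26560 and 26121 in TE6 (-0.66 ± 0.09, adjusted p = 8.8e-05). GAPDH, often taken as a constant reference, went from 179828 and 189948 to 92596 and 81937 in KYSE180 siTP63 (-1.09 ± 0.25, adjusted p = 6.1e-04). As a share of all reads GAPDH was 1.04% and 1.15% with siCont and 0.767% and 0.714% with siTP63. In TE6 siTP63 it had -0.45 (adjusted p = 0.0039), under the fold limit. PKM was called lower in both lines (-0.64 ± 0.19 and -0.57 ± 0.12) and PGAM1 in KYSE180 (-0.60 ± 0.17). In KYSE180 both calls depended on the setting, PKM holding under 8 and PGAM1 under 7 of 13 alternatives. With equal library totals they had -0.12 and -0.08. PKM was lost without siCont replicate 1 (-0.56) or siTP63 replicate 2 (-0.54) and PGAM1 without siCont replicate 2 (-0.28). GAPDH, BNIP3 and PGAM1 have 65, 44 and 13 annotated pseudogenes by name, so their counts depend on how multi-mapping reads were treated.

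PKM and ENO2 went opposite ways in BRDT-OE. PKM rose from 30599, 32770 and 35217 to 53193, 53645 and 53735 counts (0.71 ± 0.08, adjusted p = 8.4e-05), and ENO2, the neuronal enolase, fell from 805, 877 and 974 to 392, 423 and 478 (-1.04 ± 0.10, adjusted p = 2.8e-05). ENO2 also fell in KYSE180 siBRDT, from 878, 908 and 968 to 403, 431 and 452 (-1.10 ± 0.07, adjusted p = 1.7e-08), while ENO1 had -0.33 there (adjusted p = 7.0e-04), under the fold limit. None of the treated libraries overlapped the controls for ENO2. The ratio of ENO1 to ENO2 reads rose from 39.1–42.9 to 66.5–71.8 in KYSE180 siBRDT and from 34.6–44.4 to 83.1–105 in BRDT-OE, and went from 95.7 and 114 to 40.3 and 37.2 in KYSE180 siTP63. PGK1 was called in no comparison, with -0.46 in KYSE180 siTP63 (adjusted p = 0.017) and -0.47 in TE6 siTP63 (adjusted p = 0.0023).

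**Figure D3:**
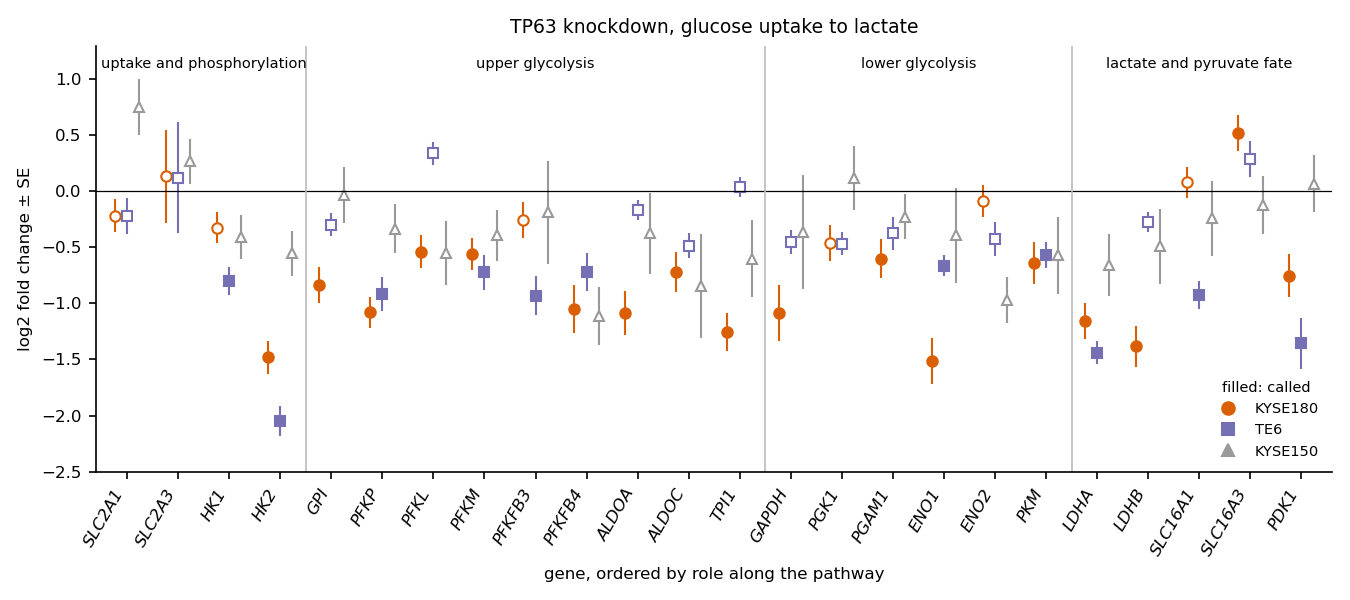
Log2 fold changes under siTP63 (y axis, ± SE) of the 24 genes from glucose uptake to lactate (x axis) in KYSE180, TE6 and KYSE150. Filled symbols are called. HK2 is the lowest point of TE6 at -2.05 and ENO1 that of KYSE180 at -1.52, and no KYSE150 point is called.

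At the end of the pathway, LDHA and LDHB interconvert pyruvate and lactate, SLC16A1 (MCT1) and SLC16A3 (MCT4) move lactate, and PDK1 holds pyruvate back from the mitochondrion by phosphorylating pyruvate dehydrogenase. LDHA fell under siTP63 in KYSE180, from 10093 and 12968 to 5028 and 5223 (-1.16 ± 0.16, adjusted p = 1.1e-06), and in TE6, from 7084 and 7600 to 2779 and 2632 (-1.44 ± 0.10, adjusted p = 4.0e-07). siBRDT in TE6 left it at 6171 and 7306, overlapping siCont (-0.13, adjusted p = 0.32), a value that was 0.15 with upper quartiles. BRDT-OE raised LDHA from 10840, 11818 and 12966 to 17293, 17833 and 18899 (0.60 ± 0.08, adjusted p = 2.2e-04), and with equal library totals it had 0.48, under the limit. In KYSE150 siTP63, LDHA was 12306 and 10179 against 16392 and 19013 in siCont, which do not overlap. It was called there only with the replicate pairing crossed (-0.66).

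LDHB fell in KYSE180 siTP63 from 42263 and 42020 to 16914 and 15472 (-1.38 ± 0.18, adjusted p = 6.1e-07) but had -0.28 in TE6 (adjusted p = 0.020). The ratio of LDHA to LDHB reads in TE6 was 0.335 and 0.353 with siCont, 0.272 and 0.293 with siBRDT and 0.155 and 0.152 with siTP63, and in KYSE150 it was 0.525–0.609 in the control and 0.762–0.835 in BRDT-OE. PDK1 fell in TE6 from 104 and 103 to 33.2 and 47.3 (-1.36 ± 0.23, adjusted p = 3.2e-04) and in KYSE180 from 170 and 194 to 95.9 and 120 (-0.75 ± 0.19, adjusted p = 0.0016), the latter call being lost without siTP63 replicate 1 (-0.59) and with equal totals (-0.23). SLC16A1 fell in TE6 siTP63 from 2154 and 2373 to 1119 and 1265 (-0.93 ± 0.12, adjusted p = 5.8e-05), with 0.08 in KYSE180. SLC16A3 was the 1 glycolytic gene that rose in KYSE180 siTP63, from 256 and 299 to 409 and 386 (0.52 ± 0.16, adjusted p = 0.0066). It missed the limit without siCont replicate 1 (0.41) or siTP63 replicate 1 (0.48) and with the length and GC trend removed (0.46). It shares exonic bases with CSNK1D on the other strand, which had 0.44 there.

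Of the oxygen-sensing genes, HIF1A was called in 4 comparisons, EPAS1 and EGLN3 in 1 each and EGLN1 in none. Its counts in TE6 were 4726 and 5178 with siCont, 637 and 1443 with siBRDT and 1326 and 1412 with siTP63, so every knockdown library lay far below the controls. Log2 fold changes were -2.37 ± 0.25 (adjusted p = 2.1e-05) for siBRDT and -1.85 ± 0.25 (adjusted p = 7.5e-05) for siTP63. siBRDT also lowered HIF1A in KYSE180, from 3877, 4192 and 4450 to 2102, 2325 and 2558 (-0.84 ± 0.08, adjusted p = 3.0e-07). Under siTP63 in KYSE180 it rose, from 544 and 616 to 1059 and 1389 (1.07 ± 0.15, adjusted p = 1.7e-06). These 4 calls held under every alternative.

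The HIF1A level of KYSE180 controls differed between experiments. Per length, siCont libraries had 73.0 ± 5.48 RPKM (RPM per kilobase of exon; SD, n = 3) in the BRDT experiment and 6.66 ± 0.79 RPKM (SD, n = 2) in the TP63 experiment. TE6 siCont had 85.2 ± 5.90 RPKM (SD, n = 2), and KYSE150 had 30.3 ± 7.81 RPKM (SD, n = 3) in the overexpression control and 5.88 ± 3.85 RPKM (SD, n = 2) in siCont. These levels come from separate experiments and were not tested against each other. The KYSE180 siCont libraries also differed in the genes targeted. TP63 was at 844 to 942 RPM in the BRDT experiment and at 149 and 183 RPM in the TP63 experiment. BRDT was at 91.3 to 103 RPM and at 45.6 and 51.3 RPM. In the KYSE150 TP63 experiment HIF1A counts were 279 and 656 with siCont and 635 and 201 with siTP63. These overlap, and they vary within each group more than between groups. BRDT-OE had 1777 to 1899 against 1683 to 2775 in the control (-0.31, adjusted p = 0.11).

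EPAS1, the gene of HIF-2 alpha, averaged 47.5 counts over the KYSE180 TP63 experiment, 217 over the KYSE180 BRDT experiment and 62.4 over TE6. It rose in KYSE180 siTP63 from 23.6 and 24.6 to 77.5 and 64.4 counts (1.51 ± 0.28, adjusted p = 5.1e-05). In TE6 siTP63 it had -0.16 (adjusted p = 0.63). In KYSE150 siTP63, EPAS1 was 588 and 442 against 312 and 326 in siCont, which do not overlap. It was called there only with the replicate pairing crossed (0.68). EGLN3 fell in TE6 siTP63 from 653 and 632 to 346 and 361 (-0.86 ± 0.12, adjusted p = 7.5e-05), and EGLN1 had values from -0.47 to 0.38.

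**Figure D4:**
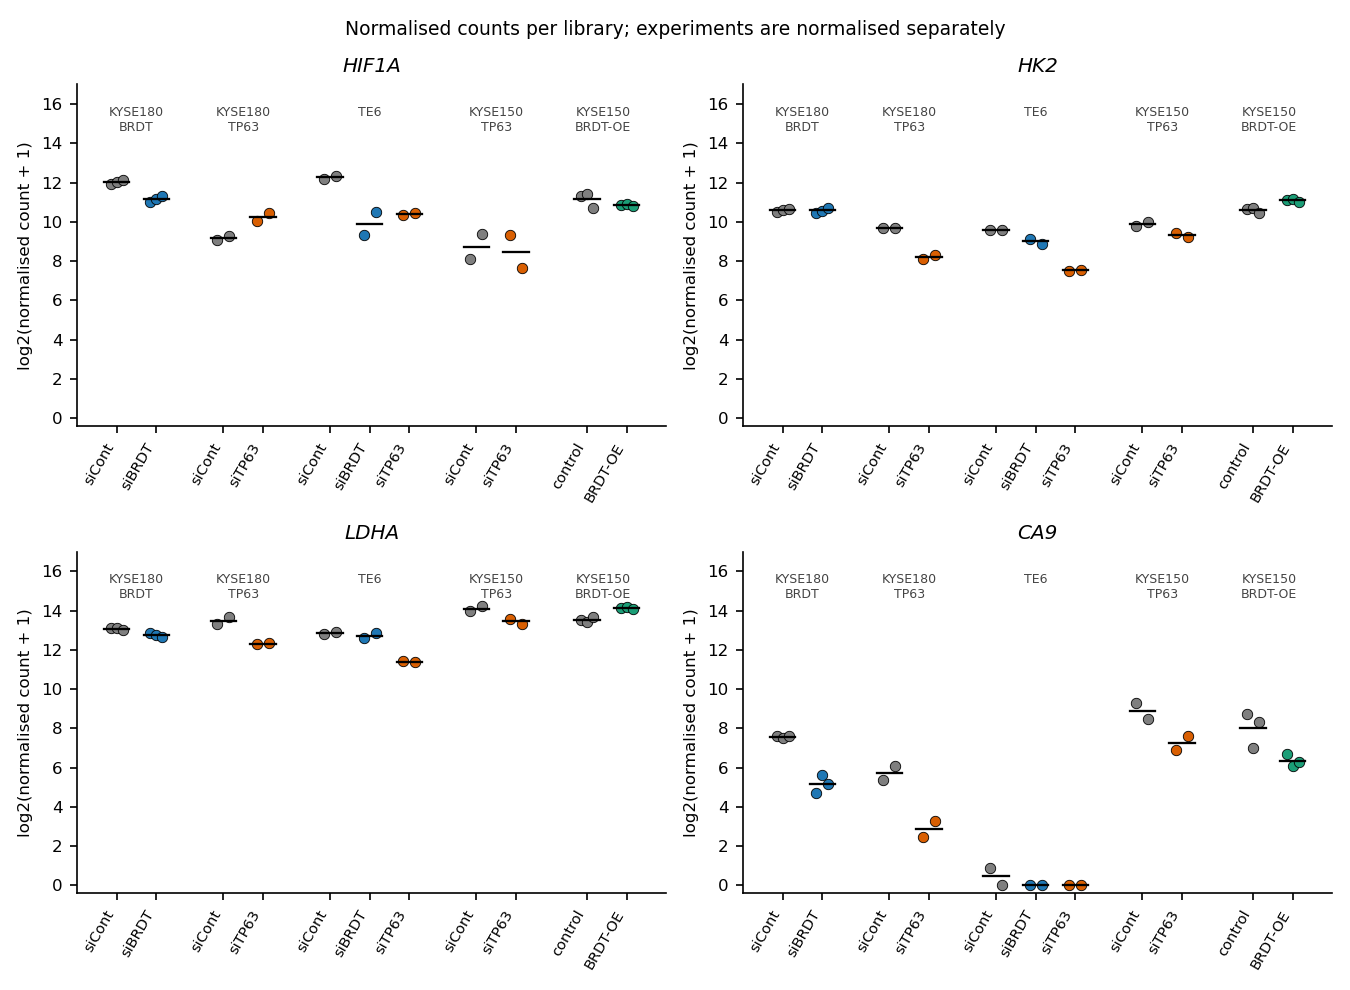
log2(normalised count + 1) of HIF1A, HK2, LDHA and CA9 (panels) in all 26 libraries (points; bars are group means), with controls in grey. HIF1A falls with siBRDT in KYSE180 and TE6 but rises with siTP63 in KYSE180, and CA9 is near 0 in TE6.

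The carbonic anhydrases CA9 and CA12 hydrate carbon dioxide at the cell surface. CA9, a HIF target widely used as a marker of hypoxia, had the largest fall of all members in KYSE180. Counts were 181, 195 and 197 with siCont and 25.5, 34.8 and 48.6 with siBRDT (-2.41 ± 0.19, adjusted p = 6.7e-08), and 40.9 and 66.7 with siCont and 4.60 and 8.74 with siTP63 (-2.85 ± 0.41, adjusted p = 1.7e-06). Neither pair of groups overlapped. In BRDT-OE it was 66.8, 77.3 and 104 against 129, 315 and 419 in the control (-1.65 ± 0.35, adjusted p = 0.0030), so CA9 was lower both with less BRDT in KYSE180 and with more BRDT in KYSE150. In KYSE150 siTP63 it was 118 and 193 against 353 and 631 (-1.64, adjusted p = 0.14), and it was called there under 6 of 14 alternatives, such as DESeq2 (-1.66), the replicate block (-1.64), and without siCont replicate 2 (-2.06) or siTP63 replicate 2 (-1.99). CA9 shares exonic bases with ARHGEF39 on the other strand, which had -0.19, -1.44 and -0.02 in KYSE180 siBRDT, KYSE180 siTP63 and BRDT-OE. CA12, tested in KYSE180 siBRDT alone, went from 34.3–40.8 to 20.0–26.6 counts (-0.63 ± 0.21, adjusted p = 0.018), a call lost with DESeq2 (-0.66) and without siCont replicate 2 (-0.56) or siBRDT replicate 3 (-0.52).

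Of the secreted factors, VEGFA drives vessel growth and ADM (adrenomedullin) widens vessels. ADM rose with siBRDT in both lines, from 679–740 to 951–1165 in KYSE180 (0.61 ± 0.08, adjusted p = 1.4e-05) and from 265 and 219 to 426 and 432 in TE6 (0.83 ± 0.14, adjusted p = 3.8e-04). With siTP63 it rose in TE6, to 428 and 475 (0.90 ± 0.14, adjusted p = 1.6e-04), and fell in KYSE180, from 1313 and 1260 to 729 and 652 (-0.90 ± 0.14, adjusted p = 6.4e-06). The fall of ADM in KYSE180 was not called with equal library totals (-0.38). Its siBRDT rise in TE6 was not called with the length and GC trend removed (0.44). VEGFA rose in KYSE180 siTP63 from 477 and 544 to 762 and 778 (0.59 ± 0.15, adjusted p = 0.0011), just short of the fold limit without siCont replicate 1 and at 0.32 with the length and GC trend removed, and fell in BRDT-OE from 804, 893 and 908 to 527, 538 and 551 (-0.69 ± 0.08, adjusted p = 7.3e-05). In KYSE180 siBRDT it had -0.37 (adjusted p = 1.9e-04), under the fold limit, and in TE6 0.16 and -0.19 with siBRDT and siTP63.

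P4HA1, P4HA2 and PLOD2 hydroxylate proline and lysine residues of collagen. PLOD2 fell in TE6 with siBRDT, from 1004 and 1182 to 672 and 523 (-0.88 ± 0.15, adjusted p = 4.2e-04), and with siTP63, to 626 and 756 (-0.66 ± 0.15, adjusted p = 0.0022), and rose in KYSE180 siTP63 from 475 and 509 to 885 and 1002 (0.94 ± 0.14, adjusted p = 5.3e-06). With the trend on transcript length and GC content removed, its TE6 values were -0.45 and -0.19 and neither was called, and the siTP63 call was also lost without siCont replicate 2 (-0.54) or siTP63 replicate 1 (-0.53). P4HA1 fell in TE6, from 468 and 510 to 316 and 295 with siBRDT (-0.68 ± 0.13) and to 309 and 326 with siTP63 (-0.62 ± 0.13). Both P4HA1 calls were lost with upper quartiles (-0.40 and -0.54), as were those of PLOD2 in TE6 (-0.60 and -0.58). P4HA2 was called in none of the 6 comparisons, with values from -0.24 to 0.50.

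The other hypoxia-inducible genes were NDRG1, a stress-response gene, BNIP3, a mitophagy receptor, ANKRD37, AK4, a mitochondrial adenylate kinase, and MXI1, an antagonist of MYC. NDRG1 was called lower in 4 comparisons, more than any other member. Its counts went from 1863–2080 to 989–1320 in KYSE180 siBRDT (-0.83 ± 0.09, adjusted p = 2.3e-06) and, in TE6, from 1156 and 1000 to 415 and 564 with siBRDT (-1.15 ± 0.15) and to 423 and 425 with siTP63 (-1.34 ± 0.15). In BRDT-OE it was 1146 to 1280 against 1222 to 2873 in the control (-0.62 ± 0.23, adjusted p = 0.046), which overlap, and without control replicate 1 it had -0.30 and was not called, nor was it without any 1 BRDT-OE library (-0.65 to -0.57) or with DESeq2 (-0.71). BNIP3 and AK4 fell in KYSE180 under both siRNAs. BNIP3 went from 1535–1684 to 806–938 with siBRDT (-0.87 ± 0.07) and from 1199 and 1874 to 726 and 725 with siTP63 (-1.05 ± 0.16), and AK4 from 556–666 to 291–354 (-0.88 ± 0.10) and from 335 and 477 to 178 and 179 (-1.16 ± 0.18). AK4 also fell in TE6 siTP63 (-0.72 ± 0.13, adjusted p = 5.1e-04). ANKRD37, with at most 41.1 counts in a library, was called lower in KYSE180 under both siRNAs, and overlaps UFSP2 on the other strand. Its siBRDT call held under only 5 of 15 alternatives and was lost when any 1 of 5 of the 6 libraries was left out (-0.72 to -0.47 over all alternatives). Its siTP63 call was lost with equal totals (-0.59) and without siTP63 replicate 2 (-1.03). MXI1 rose in KYSE180 siTP63 from 137 and 216 to 281 and 325 (0.81 ± 0.19, adjusted p = 7.8e-04), with 0.48 and no call without siCont replicate 1, and fell in BRDT-OE from 334, 366 and 409 to 208, 215 and 226 (-0.77 ± 0.10, adjusted p = 1.9e-04).

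In order to compare both knockdowns in TE6 without the shared controls, siBRDT was set directly against siTP63. Of 38 members, 7 were higher with siBRDT (18.4%, against 14.3% of all genes) and 2 were lower (5.26%, against 14.1%), with 28.4% of all genes called in either direction, and 31 of the 38 values lay above 0. Over all genes 1882 were lower and 1902 higher, against 567 and 1814 with upper quartiles and 2419 and 1507 with equal totals. HK2 was higher by 1.47 ± 0.13 (adjusted p = 4.3e-06), LDHA by 1.31 ± 0.10 (adjusted p = 1.7e-06), PDK1 by 1.12 ± 0.23, AK4 by 0.82 ± 0.13, EGLN3 by 0.69 ± 0.12, ENO1 by 0.63 ± 0.09 and ALDOA by 0.58 ± 0.09, while MXI1 and P4HA2 were lower (-0.83 ± 0.14 and -0.74 ± 0.14). For HIF1A the difference of -0.51 ± 0.25 was not called (adjusted p = 0.13). TP63 itself was at 1214 counts with siBRDT and 123 with siTP63 in TE6 (means of 2).

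The fold changes of both lines were then compared as a contrast (KYSE180 minus TE6, adjusted p under 0.05, no fold limit). Under siTP63, 21 of 38 members differed, 11 toward higher values in KYSE180 (28.9%, against 28.6% of all genes) and 10 toward lower ones (26.3%, against 30.6%), beside 59.2% of all genes in either direction, which is near the share of all genes. Over all genes 3906 had lower and 3660 higher values in KYSE180, against 1967 and 6215 with equal totals. HIF1A differed most, by 2.92 ± 0.17 (adjusted p = 1.7e-08), with 1.07 in KYSE180 and -1.85 in TE6. ADM differed by -1.80 ± 0.17, EPAS1 by 1.67 ± 0.36, PLOD2 by 1.60 ± 0.17 and TPI1 by -1.30 ± 0.15. The 9 members called lower by siTP63 in both lines were AK4, ENO1, HK2, LDHA, PDK1, PFKFB4, PFKM, PFKP and PKM, which is 42.9% of the 21 in KYSE180 and 52.9% of the 17 in TE6. Over all genes tested in both lines the genes called lower in both were 24.7% and 31.8% of the lists. Among members as a whole, siTP63 lowered 17 of 38 in TE6 and 21 of 39 in KYSE180, shares near these 42.9% and 52.9%. Of the 9, HK2, LDHA and PFKP held under every alternative in both lines. In TE6 the calls of ENO1 (-0.58), PKM (-0.49) and AK4 (-0.64) were lost with upper quartiles. That of AK4 was also lost with the length and GC trend removed (-0.42). HIF1A and PLOD2 were called higher in KYSE180 and lower in TE6, and ADM the reverse.

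**Figure D5:**
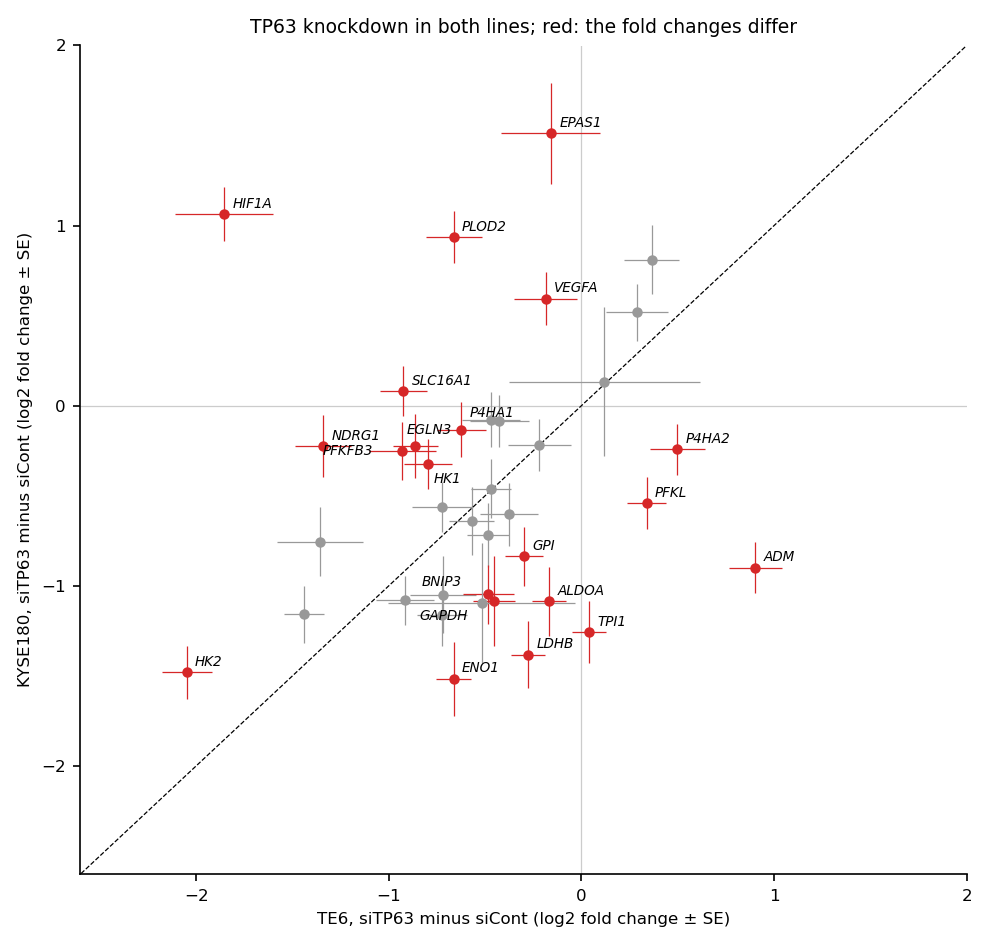
Log2 fold changes of the 38 members tested in both lines under siTP63, TE6 on the x axis and KYSE180 on the y axis (± SE), with the line of equal change dashed. The 21 red genes differed between lines. HIF1A lies at -1.85 and 1.07, and HK2 is low on both axes.

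Under siBRDT, 16 of 38 members differed between the lines, 7 toward higher values in KYSE180 (18.4%, against 21.8% of all genes) and 9 toward lower ones (23.7%, against 18.8%), beside 40.6% of all genes in either direction. Over all genes 2367 had lower and 2751 higher values in KYSE180, against 2046 and 640 with upper quartiles and 1538 and 4324 with equal totals. HIF1A fell further in TE6 (difference 1.52 ± 0.30, adjusted p = 8.4e-04), and PFKL, AK4, TPI1, BNIP3 and ENO2 had lower values in KYSE180, with differences from -1.005 (PFKL) to -0.77 (BNIP3 and ENO2). HIF1A and NDRG1 were called lower by siBRDT in both lines and ADM higher, so 2 of 10 and of 8 lower calls were shared (20% and 25.0%), beside 39.8% and 32.7% over all genes. Within KYSE180, siBRDT and siTP63 have separate controls, which differed in HIF1A, TP63 and BRDT levels, so siRNA and experiment cannot be told apart. Both siRNAs shared AK4, ANKRD37, BNIP3, CA9 and PFKL among the genes called lower, 50% of 10 and 23.8% of 21. They moved HIF1A and ADM opposite ways. Over all genes the lower calls shared were 19.0% and 11.3% of the lists. Among members as a whole, siTP63 lowered 21 of 39 in KYSE180 and siBRDT 10 of 40, shares near these 50% and 23.8%. Of the 5, ANKRD37 held under 5 of 15 alternatives for siBRDT and PFKL under 7 of 13 for siTP63. CA9, ENO2, NDRG1 and SLC2A3 were called lower both by siBRDT in KYSE180 and by BRDT-OE in KYSE150, which is 40% of 10 and 57.1% of 7, beside 22.0% and 20.6% over all genes. Of these, the SLC2A3 call in KYSE180 and the NDRG1 call in BRDT-OE each held under 10 of 15 alternatives.

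GAPDH was the most abundant member per length in the controls of every experiment. In control libraries GAPDH had 2418 to 4561 RPKM (group means), ENO1 444 to 875, LDHB 438 to 860, ALDOA 341 to 731, TPI1 218 to 535 and PKM 244 to 412, so the order of ENO1, LDHB and ALDOA varied with the experiment. HK2 had 8.26 to 23.3 RPKM, PDK1 0.616 to 2.80 and EPAS1 0.195 to 10.7. ALDOC had 60.9 to 90.5 RPKM in KYSE180 and TE6 and a mean of 2.09 and of 2.10 in both KYSE150 experiments. CA9 had 2.0 to 19.0 RPKM in KYSE180 and KYSE150 and 0.0243 in TE6 siCont, and 5 of the 6 TE6 libraries had no read.

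Further genes of the pathway were taken as 57 carbohydrate and 44 hypoxia genes outside the 40. Of the 80 or 81 tested in KYSE180 and TE6, 24 were lower and 10 higher in KYSE180 siBRDT, 14 and 10 in TE6 siBRDT, 25 and 12 in KYSE180 siTP63 and 19 and 6 in TE6 siTP63, with medians of -0.13, -0.13, -0.20 and -0.06. The lower shares were 29.6%, 17.5%, 31.2% and 23.8%, against 15.8%, 18.1%, 25.7% and 20.6% of all genes. BRDT-OE lowered 19 (25.0%, against 16.0%) and raised 5 of 76. The hypoxia genes gave 17 of the 24 falls in KYSE180 siBRDT and 12 of the 19 in BRDT-OE. GBE1, the glycogen branching enzyme, fell with siBRDT in KYSE180 from 477 ± 32.8 to 144 ± 3.21 (SD, n = 3, log2 fold change -1.72) and in TE6 from 511 ± 19.7 to 177 ± 18.3 (SD, n = 2, -1.53). CCNG2, a cyclin of growth arrest, fell with siBRDT in both lines (-1.64 and -1.97) and in BRDT-OE (-2.33). PGM2, a phosphopentomutase, and CITED2, which restrains HIF, rose in KYSE180 siBRDT (1.16 and 0.82), and CITED2 also rose in KYSE180 siTP63 (1.32). PDP1, the phosphatase that activates pyruvate dehydrogenase, fell in TE6 siTP63 from 2059 ± 280 to 358 ± 3.83 (SD, n = 2, -2.51), and PCK2 and PGLS rose in TE6 with siBRDT (2.12 and 1.13) and siTP63 (1.242 and 1.58). In KYSE180 siTP63, PGAM2 rose (2.04) while RAB20 fell (-1.31), and FUT11 fell in TE6 siTP63 (-1.27). BRDT-OE raised TIGAR (0.89) and lowered BHLHE40, an HIF-induced repressor (-2.38).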

How the data were processed

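mRNA-seq had been performed in 26 libraries of 3 ESCC lines. Per the labels, reads were aligned to hg38 with STAR 2.6.0, counted with HTSeq 0.11.2 and normalised with DESeq2 1.24.0, and the authors deposited normalised counts per gene symbol (a signal scale) in 5 tables, each normalised separately. The annotation and strand setting are not given in the sources used here. Every deposited value was a whole number of reads times a library factor (100.0% whole, tolerance 0.01), so reads were recovered.

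Treated and control libraries were compared in each table with limma 3.58.1 in R 4.3.3 (lmFit, eBayes with trend) on log2(value + 1), for genes with a table mean of at least 10. Fold changes are on that scale, which understates changes of low genes. The 3 TE6 groups shared a fit. Values were adjusted by Benjamini-Hochberg over all genes tested. The members, gene lists and tests were chosen with earlier results of these data known, and up to 3 called members per role with a mean of at least 50 were to be named by library, with SLC2A1, HK2, LDHA, HIF1A, EPAS1, CA9 and VEGFA in any case, and up to 2 called genes per direction of the other lists, of which 1 gene is not reported here. Further members are named so that all are accounted for. Alternatives were another pseudocount, no filter, no fold limit, other scalings, edgeR 4.0.16 and DESeq2 1.42.0 on recovered reads, a replicate block and each library left out. After the data were seen, equal totals, upper quartiles over tested genes, a crossed block and removal of a length and GC trend were added. Exon lengths and overlaps were from GENCODE on hg38. Scripts were tested on simulated data. Libraries of 7582089 to 19372441 reads set a floor of 3 reads at 0.155 to 0.396 RPM, which covers counting error only.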

Additional observations from a re-analysis of the deposited data

Results flagged for a closer look

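Members whose siBRDT fold change differed between KYSE180 and TE6 (log2 difference KYSE180 minus TE6, adjusted p under 0.05 over all genes, limma) were, in glycolysis, HK2 (0.58), PFKL (-1.005), PFKM (0.67), PFKFB3 (0.54), ALDOA (-0.62), ALDOC (-0.40), TPI1 (-0.80), ENO2 (-0.77), SLC16A1 (0.64) and SLC16A3 (-0.47). In the hypoxia response they were HIF1A (1.52), VEGFA (-0.52), P4HA1 (0.34), PLOD2 (0.44), BNIP3 (-0.77) and AK4 (-0.98).

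For siTP63 the glycolytic genes with a different fold change in the lines were HK1 (0.47), HK2 (0.57), GPI (-0.54), PFKL (-0.88), PFKFB3 (0.68), ALDOA (-0.92), TPI1 (-1.30), GAPDH (-0.63), ENO1 (-0.85), LDHB (-1.11) and SLC16A1 (1.01). The hypoxia genes were HIF1A (2.92), EPAS1 (1.67), EGLN3 (0.64), VEGFA (0.78), ADM (-1.80), P4HA1 (0.49), P4HA2 (-0.74), PLOD2 (1.60), NDRG1 (1.118) and BNIP3 (-0.56). The lines were processed in separate tables, so line and experiment cannot be told apart.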

How the results depend on the processing

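Of 74 calls of members in the 6 comparisons, 44 held under every alternative. The counts of members in this section mostly stand without the share of all genes called in the same setting. They show how calls depend on the setting and not whether members moved more than other genes. Without a fold limit, members called were 27 lower and 4 higher in KYSE180 siBRDT, 4 higher in TE6 siBRDT, 3 higher in TE6 siTP63, 11 lower and 17 higher in BRDT-OE, and 19 in TE6 siBRDT against siTP63. Many genes pass without that limit. In KYSE180 siBRDT 62.7% of all 13589 genes had an unadjusted p under 0.05 (limma). Upper-quartile scaling gave 2 lower and 4 higher in TE6 siBRDT, 11 lower and 2 higher in TE6 siTP63, and 9 differing between lines under siBRDT. Upper quartiles over tested genes gave 2 higher in TE6 siBRDT and 2 in TE6 siTP63. Equal library totals gave 12 lower in KYSE180 siTP63 and 1 higher in BRDT-OE. Removing a trend on length and GC content gave 2 higher in TE6 siTP63, 4 lower in KYSE150 siTP63 and 6 higher in BRDT-OE, and DESeq2 gave 2 higher in TE6 siTP63 and 3 lower in KYSE150 siTP63. With the trend removed, 479 of 11376 genes were called lower and 316 higher in KYSE150 siTP63. The cause was not tested.

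Leaving out 1 library gave 8 to 9 lower members in KYSE180 siBRDT, 7 to 11 lower and 1 to 2 higher in TE6 siBRDT, 19 to 21 lower and 3 to 6 higher in KYSE180 siTP63 (3 without siCont replicate 1), 17 to 18 lower and 1 to 2 higher in TE6 siTP63, 0 to 1 lower in KYSE150 siTP63, and 6 to 10 lower and 2 to 4 higher in BRDT-OE (4 without BRDT-OE replicate 3). Members differing were 9 to 16 in TE6 siBRDT against siTP63 (16 and 14 without siBRDT replicates 1 and 2), 11 to 24 between lines under siBRDT and 18 to 24 under siTP63.

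Same-numbered libraries paired weakly or not at all by their deviations, with r of 0.15, 0.0047 and 0.18 in KYSE180 siBRDT. In KYSE150 siTP63 r was -0.70 for equal numbers and so 0.70 for crossed ones. The labels do not say whether equal numbers mark a pair. With the replicate block, KYSE150 siTP63 had 1 lower member, and with the pairing crossed, chosen after seeing the data, 11 lower and 2 higher. The share of all genes called with the crossed pairing is not given here, so these counts do not single out the members. The block left the other counts of calls within 1.5 times.

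Uncalled values changed sign as follows. HK2 in KYSE180 siBRDT ran from -0.0702 to 0.0645 with 1 library left out (lowest without siBRDT replicate 3, and below 0 without siCont replicate 1). EPAS1 in KYSE180 siBRDT was 0.0553 with upper quartiles, 9.35e-05 with edgeR, 0.0212 with upper quartiles over tested genes, 0.0856 with equal totals and 0.0378 without the length and GC trend, and ran from -0.118 to 0.0972 with 1 library left out. LDHA in TE6 siBRDT was 0.151 with upper quartiles, and VEGFA there ran from -0.137 without siBRDT replicate 2 to 0.448 without replicate 1. SLC2A1 in KYSE180 siTP63 was 0.000869 with upper quartiles and 0.307 with equal totals. EPAS1 in TE6 siTP63 ran from -0.382 to 0.0653 and HIF1A in KYSE150 siTP63 from -1.09 without siTP63 replicate 1 to 0.568 without siTP63 replicate 2.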
